A study of Drosophila melanogaster with 6 samples.

Results

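The genes described here encode the machinery that licenses DNA replication origins and supplies the replication fork with nucleotides. They were chosen by gene symbol in the platform annotation. The 10 symbols were *Orc1* and *Orc2* of the origin recognition complex, *Mcm2*, *Mcm3*, *dpa* (the fly's Mcm4), *Mcm5*, *Mcm6* and *Mcm7* of the MCM helicase, and *RnrL* and *RnrS*, the large and small subunits of ribonucleotide reductase. Of these, 8 were carried by 1 probe set each, out of 10843 genes named on the array. No probe set had the symbol of *Mcm7* or *RnrS*, which were not analysed here.

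The measurements came from wing imaginal discs, larval epithelia from which the adult wing and notum develop, of *Drosophila melanogaster*. All discs carried the E(spl)m4-GFP reporter, which marks proneural clusters, and came from late larvae of the third instar. GFP-positive cells were those brighter than cells of *w1118* discs, which lack the reporter, and GFP-negative cells were 100000 cells per sample below that threshold, from about 200 pooled discs per sample. There were 3 GFP-positive and 3 GFP-negative samples with 1 Affymetrix array each. Both groups therefore share genotype, stage and dissociation with trypsin, and GFP-negative cells are all remaining disc cells and not 1 cell type. Whether each sample had its own dissection is not stated, and p-values then reflect only how much these samples vary, possibly for technical reasons.

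In late mitosis and G1, the origin recognition complex sits on origins and, with Cdc6 and the Cdt1 protein Double parked, loads the MCM complex of Mcm2 to Mcm7 onto DNA. In S phase Cdc45 and the GINS complex join the MCM ring to form the active helicase, and ribonucleotide reductase makes the deoxyribonucleotides that the polymerases use. In the fly many of these genes, among them *Orc1*, *PCNA* and *RnrS*, are transcribed under E2F control around the entry into S phase. Cells of the wing disc still divide late in larval life, whereas sensory organ precursors, which arise inside proneural clusters, pause in G2 before they divide.

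The deposited value is the Signal of a probe set, a brightness in arbitrary units scaled by the authors to a target of 500 on each array, with a call of Present, Marginal or Absent. The arrays called 4321, 4330 and 4541 probe sets Present in GFP-positive cells, against 5039, 4958 and 4382 in GFP-negative cells (replicates 1, 2 and 3), out of 14010. The 3′ to 5′ signal ratio of the actin control, which depends on RNA integrity and on labelling, lay between 20.4 and 45.7 in GFP-positive and between 22.3 and 73.1 in GFP-negative arrays. For the GAPDH control it was 17.2 to 42.7 against 19.3 to 33.6, and for EIF-4A 28.6 to 76.0 against 43.3 to 178.7. The factors that scaled each array to the target were 5.58, 6.52 and 6.44 in GFP-positive arrays. They were 5.18, 4.40 and 5.82 in GFP-negative arrays (replicates 1, 2 and 3). *E(spl)m4-BFM*, the gene that supplied the reporter's regulatory DNA, averaged 2353 ± 232 in GFP-positive cells, against 236 ± 163 in GFP-negative ones (SD, n = 3 each).

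Markers of cell types that could lie on one side of the sort differed between the groups. Of 9 genes of sensory organ precursors, 4 of the 6 tested were higher, and the summed signal of the 9 was 3371 to 4625 in GFP-positive against 669.5 to 902 in GFP-negative arrays. Of these 6, 5 were tested only through the GFP-positive arrays, among them all 4 that passed. All 3 posterior compartment genes were lower, with summed signals of 695 to 1028 against 3615 to 4688, and 2 of them were tested only through the GFP-negative arrays. Of 6 adult muscle precursor genes on the array, 2 of the 3 tested were lower, and the summed signal was 994 to 1094 against 2277 to 2682. These 2, *htl* and *Him*, were tested only through the GFP-negative arrays. The third, *sns*, was Present on all 6 arrays and did not pass (log2 difference 0.53, limma adjusted p = 0.36). Whether tested or not, 4 of the 6 were lower and 2 (*sns* and *hbs*) higher without overlap of the groups. No array called the defining markers *twi* and *zfh1* Present. None of the tested hemocyte (2), tracheal (1) or glial (1) markers passed the test, and no fat body marker was Present on any array. Across the array 2.99% of tested probe sets passed (62 higher and 86 lower in GFP-positive cells, limma, adjusted p under 0.05). The part of these cell types in the differences below was not tested, and in such bulk samples fewer cells expressing a gene and less RNA per cell cannot be told apart.

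The origin recognition genes among the members were dim. *Orc1* encodes the ATPase subunit of the complex whose level in the fly varies through the cell cycle. Its signal was 194.8, 161.7 and 180.8 in GFP-positive cells, where no array called it Present, against 334.9, 378.1 and 349.1 in GFP-negative cells, where 2 arrays called it Present and 1 Marginal. The groups were clearly apart, and the arrays within each group lay close together. The GFP-positive mean was 179 ± 16.6 and the GFP-negative mean 354 ± 22.0 (SD, n = 3 each). The estimate for *Orc1* was thus 1.90-fold lower in GFP-positive cells, a log2 difference of -0.93 (95% interval -1.44 to -0.41). This fold is a bound with respect to detection alone and not to the spread between arrays. *Orc1* did not pass the test over all tested probe sets (limma adjusted p = 0.067). It passed with median scaling of the arrays (adjusted p = 0.0453), with quantile scaling (0.04997) and without an intensity trend in the fit (0.046), and not with replicate number as a block (0.0648). *Orc1* entered the test only through the GFP-negative arrays, and this way of entry favours genes that are brighter there.

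*Orc2* encodes another core subunit of the origin recognition complex. Its signal was 171.4, 157 and 197.7 in GFP-positive cells, against 104.8, 304.7 and 180.4 in GFP-negative cells. The GFP-negative values span all the GFP-positive ones, and no array called *Orc2* Present, so it was not tested. The spread within groups was 0.51 on the log2 scale, and a difference was not detectable at this spread and level.

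**Figure D1:**
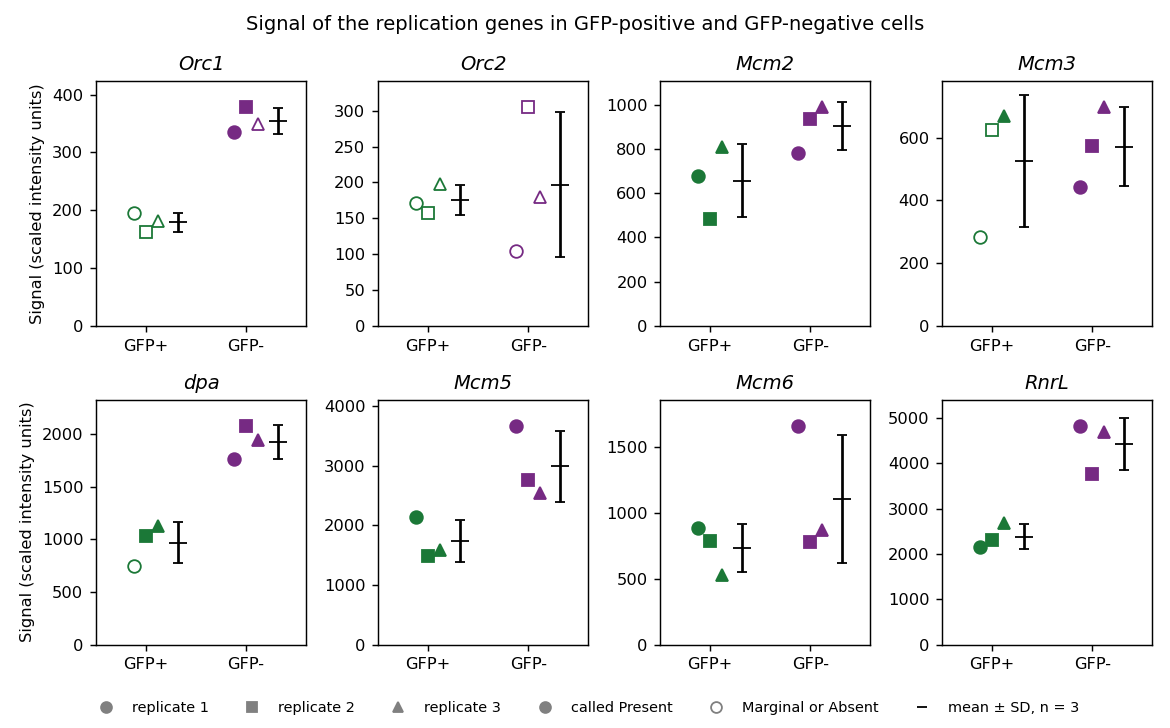
Signal (scaled intensity units, linear axes from 0) of the 8 replication genes in each array, GFP-positive left and GFP-negative right; filled markers were called Present, open ones Marginal or Absent, and bars show mean ± SD of 3 arrays. For *Orc1*, *dpa*, *Mcm5* and *RnrL* all GFP-positive arrays lie below all GFP-negative arrays, while the groups overlap for *Orc2*, *Mcm2*, *Mcm3* and *Mcm6*.

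The MCM genes encode the subunits of a 6-membered helicase ring, of which 5 were measured. *dpa* was the one member that fell in the test over all probe sets. Its signal was 749.5, 1027.2 and 1125.8 in GFP-positive cells, against 1762, 2079.8 and 1942 in GFP-negative cells. Each GFP-negative array lay well above every GFP-positive array, and the lowest value, GFP-positive replicate 1, was also the only one called Absent. *dpa* averaged 967.5 ± 195 in GFP-positive cells, against 1928 ± 159 in GFP-negative ones (SD, n = 3 each), a log2 difference of -1.00 (SE 0.226, 95% interval -1.50 to -0.50, limma adjusted p = 0.0448). Its p-value was the 137th smallest of 4943, among the last of the 62 higher and 86 lower called probe sets, and with the replicate block its adjusted p was 0.0151. The call was lost with lot as a block (adjusted p = 0.0675), with quantile scaling (0.0552), without an intensity trend (0.0551), with no detection filter (0.081) and in the arrays of day 2 alone (0.131). It was lost also without GFP-positive replicate 1 (0.167), 2 (0.0845) or 3 (0.065) and without GFP-negative replicate 2 (0.216) or 3 (0.128), while the log2 difference stayed between -1.12 and -0.83 whichever array was left out.

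*Mcm5* encodes the subunit that, with that of *Mcm2*, forms the gate through which the ring opens around DNA. Its signal was 2144.6, 1481 and 1591.8 in GFP-positive cells, against 3668.4, 2758.3 and 2537.7 in GFP-negative cells. The groups did not overlap, and replicate 1 was the highest array in both. The mean was 1739 ± 355 in GFP-positive cells, against 2988 ± 599 in GFP-negative ones (SD, n = 3 each), a log2 difference of -0.78 (SE 0.239, 95% interval -1.31 to -0.24). *Mcm5* did not pass in the fit without a block (limma adjusted p = 0.147) and passed with replicate number (0.0483) or hybridization day (0.0372) as a block.

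The other MCM genes overlapped between the groups. *Mcm2*, whose subunit also binds histones, had signals of 676.2, 481.6 and 811 in GFP-positive cells, against 780.2, 936.5 and 988.4 in GFP-negative cells. Only GFP-positive replicate 3 reached into the GFP-negative range, and the log2 difference was -0.47 (95% interval -1.02 to 0.07, limma adjusted p = 0.42). *Mcm6* had signals of 887.6, 790.2 and 530.2 in GFP-positive cells, against 1664.6, 783.4 and 869.1 in GFP-negative cells. Here GFP-negative replicate 1 stood far above the rest, the other arrays were intermixed, and the log2 difference of -0.53 (95% interval -1.23 to 0.18, adjusted p = 0.509) was -0.19 without that array.

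*Mcm3* showed the smallest difference among the MCM genes. Its signal was 283.5, 625.8 and 669 in GFP-positive cells, against 444.3, 574.4 and 697 in GFP-negative cells, and 1 GFP-positive array called it Present against all 3 GFP-negative arrays, through which alone it was tested. Apart from the dim GFP-positive replicate 1, the groups covered the same range. The log2 difference was -0.19 (95% interval -0.93 to 0.55, limma adjusted p = 0.855), with 0.20 without GFP-positive replicate 1 and 0.031 in the arrays of day 2, so its sign rests on the arrays of day 1. The interval still includes a difference as large as that of *Mcm5*. Set against the mean of the other 4 MCM genes within each array, the change of *dpa* was -0.51 and that of *Mcm3* was 0.51 on the log2 scale, with those of *Mcm2* (0.15), *Mcm5* (-0.23) and *Mcm6* (0.08) between them. These differences between subunits were not tested.

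Averaged over the 5 MCM genes on the log2 scale, the arrays nevertheless separated. The geometric mean signal was 775, 817 and 877 in GFP-positive arrays, against 1306, 1196 and 1243 in GFP-negative arrays. The spread of this average within a group was small, with mean log2 values of 9.71 ± 0.09 in GFP-positive cells, against 10.30 ± 0.06 in GFP-negative ones (SD, n = 3 each). An average over 5 genes varies less than single genes by construction. Single MCM probe sets deviated in different directions on the same array. In GFP-positive replicate 1, *Mcm3* lay 0.76 and *dpa* 0.34 below their GFP-positive means, while *Mcm5* lay 0.32 and *Mcm6* 0.30 above theirs. GFP-negative replicate 1 deviated alike for *Mcm3* (-0.33), *Mcm5* (0.31) and *Mcm6* (0.67), and these are the 2 arrays hybridised on day 1. *dpa* was also low in it (-0.13), whereas *Mcm2* went opposite ways in the 2 arrays (0.07 in GFP-positive and -0.20 in GFP-negative replicate 1), as did *Orc1* (0.12 and -0.07) and *RnrL* (-0.14 and 0.13).

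*RnrL* encodes the large, catalytic subunit of ribonucleotide reductase. Its signal was 2150.6, 2315 and 2689.8 in GFP-positive cells, against 4831.1, 3767.6 and 4699.8 in GFP-negative cells, with Present calls on all 6 arrays. The highest GFP-positive array stayed far below the lowest GFP-negative one. The mean was 2385 ± 276 in GFP-positive cells, against 4433 ± 580 in GFP-negative ones (SD, n = 3 each), a log2 difference of -0.89 (SE 0.211, 95% interval -1.36 to -0.42). *RnrL* missed the threshold in the fit without a block (limma adjusted p = 0.0553) and passed with replicate number (0.0223) or hybridization day (0.0281) as a block and with median scaling (0.0398).

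Over the members as a group, 1 of the 7 tested genes fell, 0 rose and 6 did not pass, where 1.74% of all tested probe sets fell and 1.25% rose. At an unadjusted p under 0.05, 4 of the 7 were lower (*dpa*, *RnrL*, *Orc1* and *Mcm5*), against 8.01% of all tested probe sets. With the replicate block the count was 3 (*dpa*, *RnrL* and *Mcm5*), where 3.03% of all tested probe sets fell, and with the day block the same 3 genes passed (2.77% of all). All 8 genes on the array had a negative sign, against 41.0% of all probe sets with no filter, *Orc2* at only -0.05 with array pairs of 0.63, -0.89 and 0.12. In 4 of the 8 the groups did not overlap, against 6.36% of all probe sets with no filter that were lower without overlap. The median of the 8 was -0.65 where that of all probe sets was 0.09. The 4 members Present on all 6 arrays (*Mcm2*, *Mcm5*, *Mcm6* and *RnrL*) had a median of -0.65 as well, where the 3567 probe sets Present on all 6 had one of -0.01. Among these 4 the groups of *Mcm5* and *RnrL* did not overlap, and 11.0% of the 3567 were lower without overlap.

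**Figure D2:**
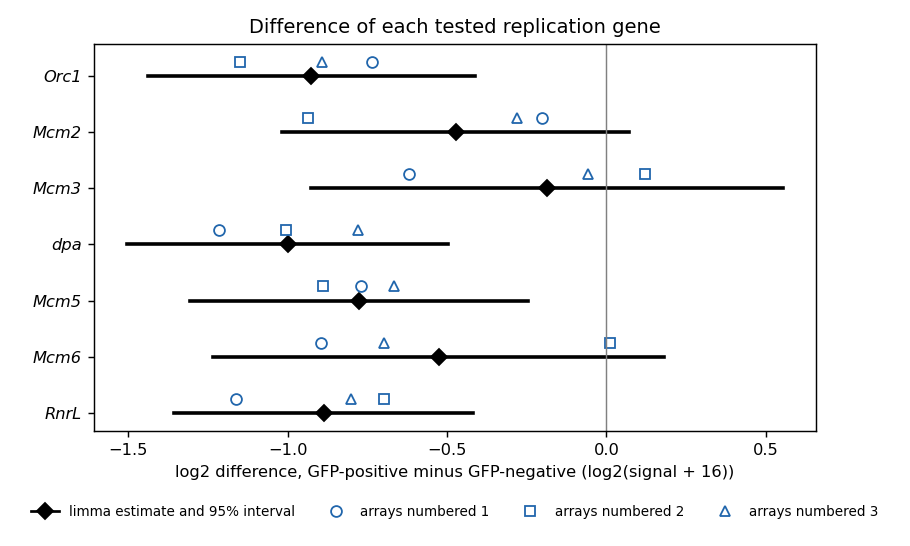
Difference in log2(signal + 16), GFP-positive minus GFP-negative, for the 7 tested replication genes; diamonds and lines give the limma estimate and its 95% interval, and open markers the difference between the arrays that share a replicate number. The intervals of *Orc1* (-1.44 to -0.41), *dpa*, *Mcm5* and *RnrL* lie below 0, while those of *Mcm2*, *Mcm3* and *Mcm6* include it.

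The arrays were hybridised on 2 days and came from 3 array lots, so differences were also read within them. Replicate 1 of each group made up day 1, and for *dpa*, *RnrL*, *Orc1* and *Mcm5* the day 1 pair differed by -1.22, -1.16, -0.74 and -0.77 on the log2 scale. In the 4 arrays of day 2 the same genes differed by -0.89, -0.75, -1.02 and -0.78, and none of the 4 passed there (limma adjusted p = 0.131, 0.221, 0.169 and 0.174). Both days therefore gave each of these genes the same sign. The largest lot, 3 arrays of which 1 was GFP-positive, gave -1.33, -0.98, -0.82 and -0.57, and the lot with 1 array of each group gave -0.78, -0.80, -0.89 and -0.67. The signs in these subsets were fixed once the groups did not overlap. *Mcm6* differed by -0.90 on day 1 and -0.34 on day 2, and *Mcm2* by -0.20 and -0.61.

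The wider replication genes were read from 4 lists. Origin firing and helicase loading was represented by 12 genes on the array, of which 8 were tested and 0 passed (limma, 2 at an unadjusted p under 0.05), with 5 negative signs and a median of -0.17. Over all tested probe sets 14.0% had an unadjusted p under 0.05 in either direction, 51.3% had a negative sign and the median was -0.01. Those with the smallest p were *Cdc45*, the helicase activator (970 ± 169 in GFP-positive against 1533 ± 166 in GFP-negative cells, SD, n = 3, log2 difference -0.66, adjusted p = 0.186), *Mcm10*, a replication initiation factor (381 ± 58.0 against 554 ± 37.2, -0.53, adjusted p = 0.302), and *dup*, the Cdt1 loader (83.9 ± 18.6 against 132.9 ± 12.3, -0.59, 95% interval -1.26 to 0.09, adjusted p = 0.419). No GFP-positive array called *dup* Present, and it was tested only through the GFP-negative arrays. The genes of this list did not share a direction. *Cdc6*, the partner of *dup* in loading, and the GINS gene *Psf2* were singled out after their values were seen. *Cdc6* had a log2 difference of 0.36 (adjusted p = 0.481) with all GFP-positive arrays above all GFP-negative ones, and *Psf2* had 0.28 (adjusted p = 0.725). The origin recognition genes *Orc5* and *Orc4* were singled out likewise. *Orc5*, tested through both groups, had a log2 difference of -0.09 (limma adjusted p = 0.922) with overlapping groups. *Orc4* was Present on 1 array, in GFP-negative cells, and was not tested. Over the 5 genes Present on all 6 arrays the median was 0.12.

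Most tested genes of the replication fork had a lower mean in GFP-positive cells. Of 18, 0 passed and 5 had an unadjusted p under 0.05, with 15 negative signs and a median of -0.40, against 14.0% at that p, 51.3% negative signs and a median of -0.01 over all tested probe sets. Of the 18, 2 were tested only through the GFP-negative arrays. In 10 of the 18 all GFP-positive arrays lay below all GFP-negative arrays, as in 11.4% of all tested probe sets. *Prim2*, a primase subunit, averaged 682 ± 81.3 in GFP-positive cells, against 1222 ± 205 in GFP-negative cells. No GFP-positive array called it Present, and it was tested only through the GFP-negative arrays. The estimate for *Prim2* was 1.77-fold lower in GFP-positive cells, a log2 difference of -0.82 (95% interval -1.31 to -0.33). This fold is a bound for detection alone and not for the spread between arrays. The limma adjusted p was 0.0886, or 0.0499 with the day block. The single-strand binding protein gene *RPA2* averaged 1977 ± 320 against 3502 ± 844 (log2 difference -0.80, adjusted p = 0.15, or 0.0444 without GFP-negative replicate 1). The clamp loader gene *RfC3* averaged 1665 ± 200 against 2731 ± 414 (log2 difference -0.70, adjusted p = 0.147). The sliding clamp gene *PCNA*, singled out here after its values were seen, had a log2 difference of -0.58 (adjusted p = 0.223), and the clamp loader genes *RfC4* and *RfC38*, singled out likewise, had adjusted p-values of 0.956 and 0.998.

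Among the other genes of nucleotide synthesis, 15 were tested, 0 passed and 5 had an unadjusted p under 0.05, with 14 negative signs and a median of -0.42, where 14.0% of all tested probe sets reached that p and 51.3% had a negative sign. The 3 with the smallest p were *Ts*, *dnk* and *dUTPase*. *Ts*, the thymidylate synthase, had signals of 359.4, 514.7 and 344.9 in GFP-positive cells, where no array called it Present, against 878.2, 741.7 and 783.2 in GFP-negative cells. The estimate for *Ts* was 1.96-fold lower in GFP-positive cells, a log2 difference of -0.97 (95% interval -1.49 to -0.46). This fold is a bound for detection alone and not for the spread between arrays. The limma adjusted p was 0.0554, or 0.0349 with replicate number as a block and 0.0437 without GFP-positive replicate 2. Like *Orc1*, *Ts* was tested only through the GFP-negative arrays. *dnk*, the deoxyribonucleoside kinase, averaged 812 ± 69.8 against 1348 ± 62.5 (log2 difference -0.72, adjusted p = 0.0995), and *dUTPase*, which removes dUTP, averaged 3306 ± 709 against 5427 ± 535 (log2 difference -0.73, adjusted p = 0.145). In 7 of the 15 genes all GFP-positive arrays lay below all GFP-negative arrays, as in 11.4% of all tested probe sets, and 2 of the 15 were tested only through the GFP-negative arrays.

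Of the regulators of the passage from G1 to S phase, 9 were tested, 0 passed and 2 had an unadjusted p under 0.05, with 7 negative signs and a median of -0.24, beside 14.0% at that p and 51.3% negative signs over all tested probe sets. Of the 9, 2 were tested only through the GFP-negative arrays. *Rbf*, the retinoblastoma-family repressor of E2F, had signals of 198.2, 195 and 200 in GFP-positive cells, all called Marginal, against 748.8, 345.8 and 402.6 in GFP-negative cells. The estimate for *Rbf* was 2.28-fold lower in GFP-positive cells, a log2 difference of -1.19 (95% interval -1.85 to -0.52). This fold is a bound for detection alone and not for the spread between arrays. The limma adjusted p was 0.0677, or 0.0223 with the replicate block. *Rbf* was likewise tested only through the GFP-negative arrays, of which replicate 1 stood well above the other arrays. *E2f2*, the repressor E2F, had a log2 difference of -0.61 (adjusted p = 0.303) and *Cdk2*, the partner of Cyclin E, of -0.24 (adjusted p = 0.721). The activator *E2f1* (-0.09, adjusted p = 0.943) and *CycE* (-0.37, adjusted p = 0.75), singled out here after their values were seen, did not pass either.

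**Figure D3:**
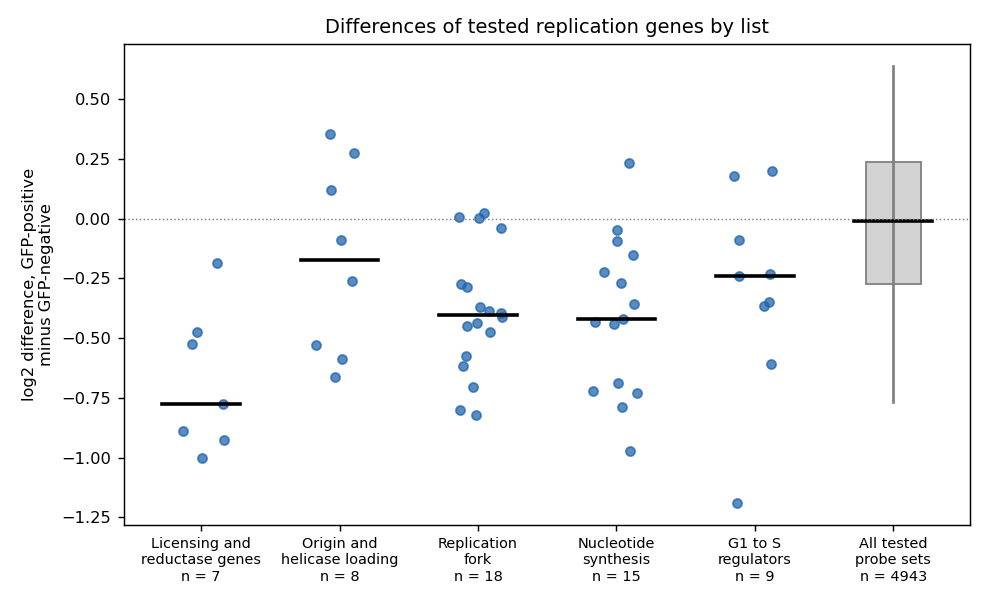
Difference in log2(signal + 16), GFP-positive minus GFP-negative, of each tested gene in the replication lists; points are genes, black lines medians, and the grey box and line give the 25th to 75th and the 5th to 95th percentiles of all 4943 tested probe sets. The licensing and reductase genes have a median of -0.78 over the 7 tested, the fork and nucleotide lists medians of -0.40 and -0.42, and the origin and helicase loading list spans both signs.

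Taking the 4 wider lists as one, 50 of 63 genes on the array were tested and 0 passed in limma. Of the 50, 14 had an unadjusted p under 0.05, all of them lower in GFP-positive cells. Over all tested probe sets 8.01% were lower at that p, and 14.0% reached it in either direction. Of the 39 genes Present on all 6 arrays, 31 had a negative sign, against 51.4% of all such probe sets, and their median was -0.37. The count of wider genes that passed was 2 with the replicate block (*Ts* and *Rbf*) and 3 with the day block (*Ts*, *Rbf* and *Prim2*).

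Genes other than the members with a profile like that of the MCM genes were sought among 3099 other probe sets Present on all 6 arrays. Genes of the wider lists stayed among these candidates. Likeness was the root mean square difference, over the 6 arrays, between a gene's centred log2 profile and the mean profile of the 5 MCM genes. The closest were *Arpc2* of the Arp2/3 actin nucleator (0.0758), *Cbs*, the cystathionine beta-synthase (0.0765), *rept*, an ATPase of chromatin remodelling complexes (0.0934), *SerRS*, a seryl-tRNA synthetase (0.0941), and *CG11267* (0.1). These 5 are the smallest values of all 3099, so their closeness follows from how they were chosen. Among the members the distance was 0.175 for *RnrL* and 0.212 for *Orc1*, and between 0.246 (*Mcm2*) and 0.447 (*Mcm3*) for the 5 MCM genes, which are part of the mean. The log2 differences of the 5 closest genes lay between -0.64 and -0.50, and none of these 5 passed the test (limma adjusted p of 0.147 to 0.275).

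**Figure D4:**
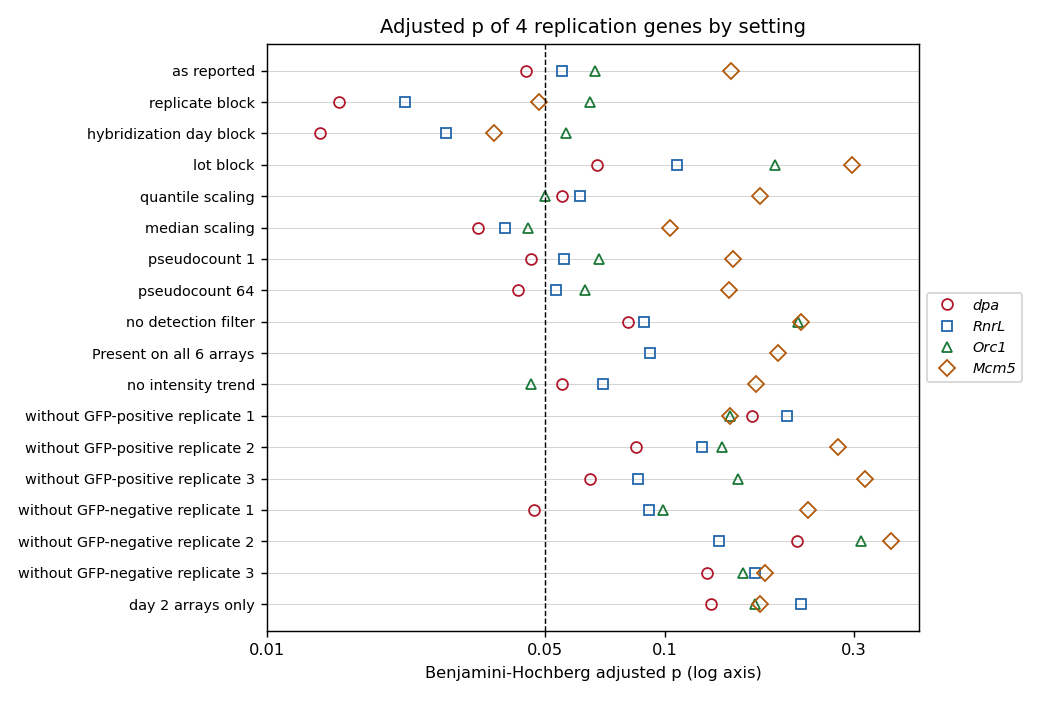
Benjamini-Hochberg adjusted p (log axis) of *dpa*, *RnrL*, *Orc1* and *Mcm5* as reported and under each of 17 other settings, with the threshold of 0.05 as a dashed line. *dpa* and *Orc1* have no value among probe sets Present on all 6 arrays; *dpa* ranges from 0.0135 with the day block to 0.216 without GFP-negative replicate 2.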

How the data were processed

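The analysis started from the authors' array files. The deposited intensity (Signal) was computed with the statistical algorithm of Affymetrix and scaled per array to a target of 500, per the file headers. The files also hold deposited detection p-values and the calls made from them, with a Tau of 0.015 and limits of 0.04 (Present) and 0.06 (Marginal), per the file headers. Only the calls were used. The deposited series table holds the same intensity values for all 14010 probe sets, with array medians between 125.35 and 151.6. Labelling is not given in the sources used here. Groups and replicate numbers came from the titles.

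Symbols came from the platform annotation, with 1 symbol for 12442 probe sets, several for 327 (left unnamed) and none for 1197, and 12393 were updated by Entrez number with a RefSeq gene table. No coordinates or sequences are printed, because the files name no genome build and no sequence table was used here.

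Signals were used as deposited and transformed as log2(signal + 16), which understates changes of dim genes. A probe set entered the test when 2 or more of the 3 arrays in either group called it Present (4943 probe sets, 4202 genes). The groups were compared with limma 3.58.1 in R 4.3.3 (lmFit, eBayes with an intensity trend, two-sided, group as the only term). Adjusted p-values are Benjamini-Hochberg values over all tested probe sets, with a threshold of 0.05. The fit was tested on simulated data with the spread of these arrays. It recovered 51% of probe sets changed by 1 on the log2 scale and 93% of those changed by 2. Of its 154 calls, 10 were false. A difference near 1 can thus miss the threshold. Where no array of the dimmer group called a gene Present, the fold is given as a bound for detection alone, from mean log2 values, with each dim signal raised to that array's lowest Present signal (29.4 to 36.8) if it lay under it. For *Orc1*, *Prim2*, *Ts* and *Rbf* no dim signal lay under that level, so the bound equals the estimated fold. Spread between arrays is not part of this bound. The number of arrays limits the precision of every value.

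Same-numbered arrays deviated together from their group means over tested probe sets (r = 0.40, 0.10 and 0.12 for numbers 1, 2 and 3). The main fit does not use this pairing, and the fit with replicate number as a block is given where it changed a call. Number 1 is also the pair hybridised on day 1, so pairing and day cannot be told apart there. GFP-positive replicate 2 correlated about as much with GFP-negative replicate 3 (0.098) as with its own number. GFP-positive replicate 3 correlated more with GFP-negative replicate 2 (0.22). Lists count each gene once, by its brightest tested probe set. The members and lists were chosen with earlier results of these data known. Named were all members, every list gene past the threshold and the 3 smallest p-values of each list, and the 5 genes most like the MCM mean. Other genes were singled out after their values were seen, as marked in the text.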

Additional observations from a re-analysis of the deposited data

How the results depend on the processing

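Across 17 other settings the number of member genes that passed, 1 as reported, was 3 with the replicate block, 3 with hybridization day as a block and 3 with median scaling. It was 0 with lot as a block, with no detection filter, among probe sets Present on all 6 arrays and in the day 2 arrays, and between 0 and 1 when each array was left out in turn. With quantile scaling and without an intensity trend it stayed at 1, but the gene was *Orc1* and not *dpa*. The number of wider replication genes that passed, 0 as reported, was 2 with the replicate block, 3 with day as the block, 2 with median scaling and between 0 and 1 when an array was left out. The number of all probe sets that passed, 62 higher and 86 lower as reported, was 257 in all with the replicate block and 229 with day in its place, 97 with no detection filter, 50 among probe sets Present on all 6 arrays, 76 in the day 2 arrays and between 69 and 153 when an array was left out. Median scaling moved the median of all tested probe sets by -0.10 on the log2 scale, and 68.2% of the called probe sets were then lower, against 58.1% as reported. The log2 difference of *Mcm3* lay between -0.40 and 0.20 when an array was left out, positive without GFP-positive replicate 1, and was 0.031 in the day 2 arrays; none of the other 6 tested members changed sign under these settings, and *Orc2*, which was not tested, is not among them. The replicate block, which pairs arrays by number, changed no other member's call than those of *RnrL* and *Mcm5*. Arrays with no Present call limit *Orc1*, whose fold is a bound for detection alone, and *Orc2*, which was not tested.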
